A study of Mus musculus with 8 samples.

Results

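The nuclear-encoded genes of the mitochondrial respiratory chain were followed in the mouse fibroblast line NIH3T3, which grows without limit in culture, during a short response to serum with and without cordycepin. Members were chosen by name: every gene on the array with a RefSeq mRNA accession and a symbol of the NADH dehydrogenase (Nduf), succinate dehydrogenase (Sdh), ubiquinol-cytochrome c reductase (Uqcr), cytochrome c oxidase (Cox4 to Cox8) or ATP synthase (Atp5) families. This gave 84 genes, measured by 113 probes, of 20030 genes with such an accession. They comprised 37 genes of complex I, 4 of complex II, 8 of complex III, 18 of complex IV and 17 of complex V, assigned by symbol. The name rule also took in Atp5s and Atp5sl, which now have the symbols Dmac2l and Dmac2 and are no subunits of the ATP synthase.

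All cells were moved from 10% to 0.5% newborn bovine serum for 24 h. In the first group, 20 µM cordycepin in DMSO was given for 90 min and serum for the last 30 min (3 arrays). The second group received 0.1% DMSO in its place and the same serum (3 arrays), and the third received no serum (2 arrays). These times follow the labels, whereas the study's text can be read as serum given after the cordycepin time rather than within it. Whether the third group received DMSO is not given in the sources used here. Cordycepin is 3′-deoxyadenosine, an adenosine analogue that is known to interfere with the formation of poly(A) tails. No array held cells given cordycepin without serum, so its effect was measured only in the presence of serum.

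The respiratory chain sits in the inner mitochondrial membrane. Complex I (NADH dehydrogenase) and complex II (succinate dehydrogenase) pass electrons to ubiquinone, complex III passes them to cytochrome c, complex IV (cytochrome c oxidase) passes them to oxygen, and complex V uses the resulting proton gradient to make ATP. Most subunits are encoded in the nucleus, and their mRNAs are abundant and long-lived in many cell types. Their promoters are known to be bound by NRF1, by ETS factors of the GABP type and by YY1, while the coactivator PGC-1alpha (Ppargc1a) raises their transcription in tissues with a high energy demand.

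Promoter sequences are shown first, with the motifs of these factors, although most of the member promoters held none of the NRF1, ETS and YY1 cores. RefSeq promoters of build GRCm38.p6, spanning 250 bases before and 50 bases after the start of the gene, were found for 69 of the 84 genes, with the first listed promoter taken where a gene had several. The NRF1 core GCGCATGC was held by 14.5% of them and by 2.8% of all 27025 promoters of the table, searched on both strands. The ETS core CCGGAAG was held by 21.7% against 9.12%, and the YY1 core AAGATGGCG by 10.1% against 1.49%. TATAAA was held by 10.1% against 14.2%. Over the promoters of the tested RefSeq mRNA genes alone, of which 10229 were matched by symbol, the shares were 5.23% for NRF1, 16.9% for ETS, 3.06% for YY1 and 8.03% for TATAAA. At least 1 of the NRF1, ETS and YY1 cores stood in 27 member promoters, or 39.1%, against 23.4% of those genes. The member promoters had a median of 57.3% G and C, against 52.7% over all promoters. This median was not taken over the tested RefSeq mRNA genes alone.

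All 7 YY1 cores of member promoters lay on the coding strand between 23 and 36 bases after the start of the gene. This stretch was set by the members' own positions. Over all promoters, 80 of the 419 YY1 cores on either strand, or 19.1%, lay in it on the coding strand. The core contains the letters ATG, so it can overlap a start codon. The 7 windows of 30 bases are printed with the core in capitals, to show where it stands among flanks that differ between the genes (chr5:145191500-145191529 minus strand, chr7:25619429-25619458 plus, chr6:126849097-126849126 minus, chr3:51408915-51408944 minus, chr13:114388045-114388074 minus, chr13:73328433-73328462 minus and chr10:80249462-80249491 plus, in this order).
Atp5j2: accaggacttcAAGATGGCGtcactcggtg
Atp5sl: cgttacctggcAAGATGGCGgcgcccagag
Ndufa9: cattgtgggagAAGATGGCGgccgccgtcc
Ndufc1: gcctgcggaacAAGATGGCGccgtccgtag
Ndufs4: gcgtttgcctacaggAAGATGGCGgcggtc
Ndufs6: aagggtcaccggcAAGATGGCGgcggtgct
Ndufs7: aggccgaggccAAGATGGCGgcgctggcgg

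Whole promoters of 4 genes follow, with matches to any of the 4 motifs in capitals. Cox6a1 (chr5:115348909-115349208, minus strand) is the isoform of subunit 6a found in most tissues and carries an NRF1 core that reads on both strands and an ETS core. Cox8a (chr19:7217567-7217866, minus strand) and Cox8b (chr7:140900397-140900696, minus strand) encode the common and the heart and muscle isoform of subunit 8, and were well above background on all arrays and on none of them, respectively. The Cox8a window held 2 ETS cores and the Cox8b window only a TATAAA. Ndufa3 (chr7:3617123-3617422, plus strand), the only member whose chosen probe passed the test described further on, held only a TATAAA.
Cox6a1: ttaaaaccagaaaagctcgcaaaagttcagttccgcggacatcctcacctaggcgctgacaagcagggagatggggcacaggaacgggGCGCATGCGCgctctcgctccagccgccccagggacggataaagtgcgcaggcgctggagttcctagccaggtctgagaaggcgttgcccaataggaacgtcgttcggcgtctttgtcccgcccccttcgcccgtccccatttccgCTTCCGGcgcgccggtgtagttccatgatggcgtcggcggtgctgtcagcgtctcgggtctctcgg
Cox8a: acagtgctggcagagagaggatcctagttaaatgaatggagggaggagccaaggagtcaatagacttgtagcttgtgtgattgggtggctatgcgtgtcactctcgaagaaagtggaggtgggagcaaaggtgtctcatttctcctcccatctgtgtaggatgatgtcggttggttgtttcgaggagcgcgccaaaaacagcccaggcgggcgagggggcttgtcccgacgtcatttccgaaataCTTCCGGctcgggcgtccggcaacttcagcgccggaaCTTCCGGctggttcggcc
Cox8b: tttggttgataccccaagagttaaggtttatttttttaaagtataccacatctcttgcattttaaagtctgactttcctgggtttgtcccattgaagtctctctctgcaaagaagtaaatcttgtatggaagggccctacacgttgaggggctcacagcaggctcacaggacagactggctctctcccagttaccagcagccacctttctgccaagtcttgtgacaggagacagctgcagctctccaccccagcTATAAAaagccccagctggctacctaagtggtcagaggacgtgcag
Ndufa3: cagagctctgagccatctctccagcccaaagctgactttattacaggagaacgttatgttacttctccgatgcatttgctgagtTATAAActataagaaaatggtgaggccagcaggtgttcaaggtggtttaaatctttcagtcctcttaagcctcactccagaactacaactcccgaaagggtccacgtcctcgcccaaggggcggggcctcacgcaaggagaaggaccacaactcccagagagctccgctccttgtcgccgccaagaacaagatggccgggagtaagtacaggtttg

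Levels are given as log2 of the processed signal, with the 75th percentile of the same array set to 0. On each array, 51.1 to 57.1% of the probes exceeded background clearly, by the scanner software's own flag (well above background), and the 75th percentile of the signal ran from 350.5 to 802.2. Over the tested probes, r was 0.992 to 0.995 within groups and 0.966 to 0.992 across groups. All 8 fibroblast markers examined, such as Col1a1 and Vim, were well above background on every array. None of 4 epithelial, 6 muscle or 2 spermatid markers was so on every array. The muscle marker Des and the spermatid marker Tnp1 were well above background on 7 arrays. Of 3 endothelial markers, Kdr (mean level 2.48) and Pecam1 (-2.62) were well above background on every array and Cdh5 on none. In units of the 75th percentile, the summed signal of the fibroblast markers ran from 2193 to 2654 with cordycepin and from 1961 to 2306 with serum alone. That of 4 leukocyte markers ran from 7.59 to 9.40 and from 1.74 to 2.07, which was Cd68 alone (log2 difference 3.04 ± 0.21, adjusted p = 5.17e-05): Cd3e did not pass (adjusted p = 0.672), and Lyz2 and Ptprc were too dim to be tested. That of 3 adipocyte markers ran from 0.304 to 0.464 and from 0.213 to 0.281, where Adipoq passed (5.65-fold higher with cordycepin, adjusted p = 0.00323), Fabp4 did not (adjusted p = 0.25) and Ucp1 was not tested. The part of these markers in the results was not tested. In RNA from whole cultures, fewer cells of a kind and less RNA per cell cannot be told apart.

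Of the 84 genes, 81 were well above background on all 8 arrays and were tested. The other 3, Cox7b2, Cox8b and Cox8c, did not reach this on a single one. When the 13421 tested mRNA genes were ordered by signal and cut into 10 bins of equal size, 58 of the 81 fell in the brightest bin and 15 in the bin after it.

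The first comparison, of cells given cordycepin before serum with cells given serum only, addressed the effect of cordycepin. The respiratory chain mRNAs stayed within a narrow band that lay slightly above 0. Of the 81 genes, 81 had a positive log2 difference, from 0.00 for Cox4i2 to 0.35 for Ndufb11, with a median of 0.23 (1.17-fold) and an interquartile range of 0.11. A single gene, Ndufa3, passed the test at an adjusted p under 0.05, and 0 did so with a change of 1 or more on the log2 scale in either direction. Among all 30859 probes tested, 19.4% passed, and 10.5% passed with that fold, while among the 13421 mRNA genes 14.4% passed. Of the called probes, 62.0% were higher with cordycepin, a share that was 47.0% after quantile normalisation and 78.7% with spike-in controls set to 0. At an unadjusted p under 0.05, 26 members were higher and none was lower, beside 1833 higher and 1714 lower of the 13421 mRNA genes.

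The shift was small and its size depended on the scaling. The median over the mRNA genes tested was 0.07 with an interquartile range of 0.36, and that over all probes was 0.10. The number of members with a positive difference was 74 of 81 after quantile normalisation, 77 with spike-in controls set to 0, 80 with normexp background correction and 81 with the median of mRNA probes set to 0. The median of the members was 0.11, 0.17, 0.19 and 0.26 under these, in the same order. The 95% confidence intervals of all 81 genes lay within a log2 change of 1 in size, with the lowest bound at -0.51 and the highest at 0.73. In 55 of the 81 genes, every cordycepin array was higher than every array with serum alone, and in 0 genes every one was lower. Over the mRNA genes tested, 22% had all cordycepin arrays higher and 15% had all of them lower. Of the 3356 brightest of these genes, members included, 972 had all of them higher and 369 all of them lower. The genes of the cytosolic ribosomal proteins, whose mRNAs are also abundant, had 44 of 77 higher and 0 lower.

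**Figure D1:**
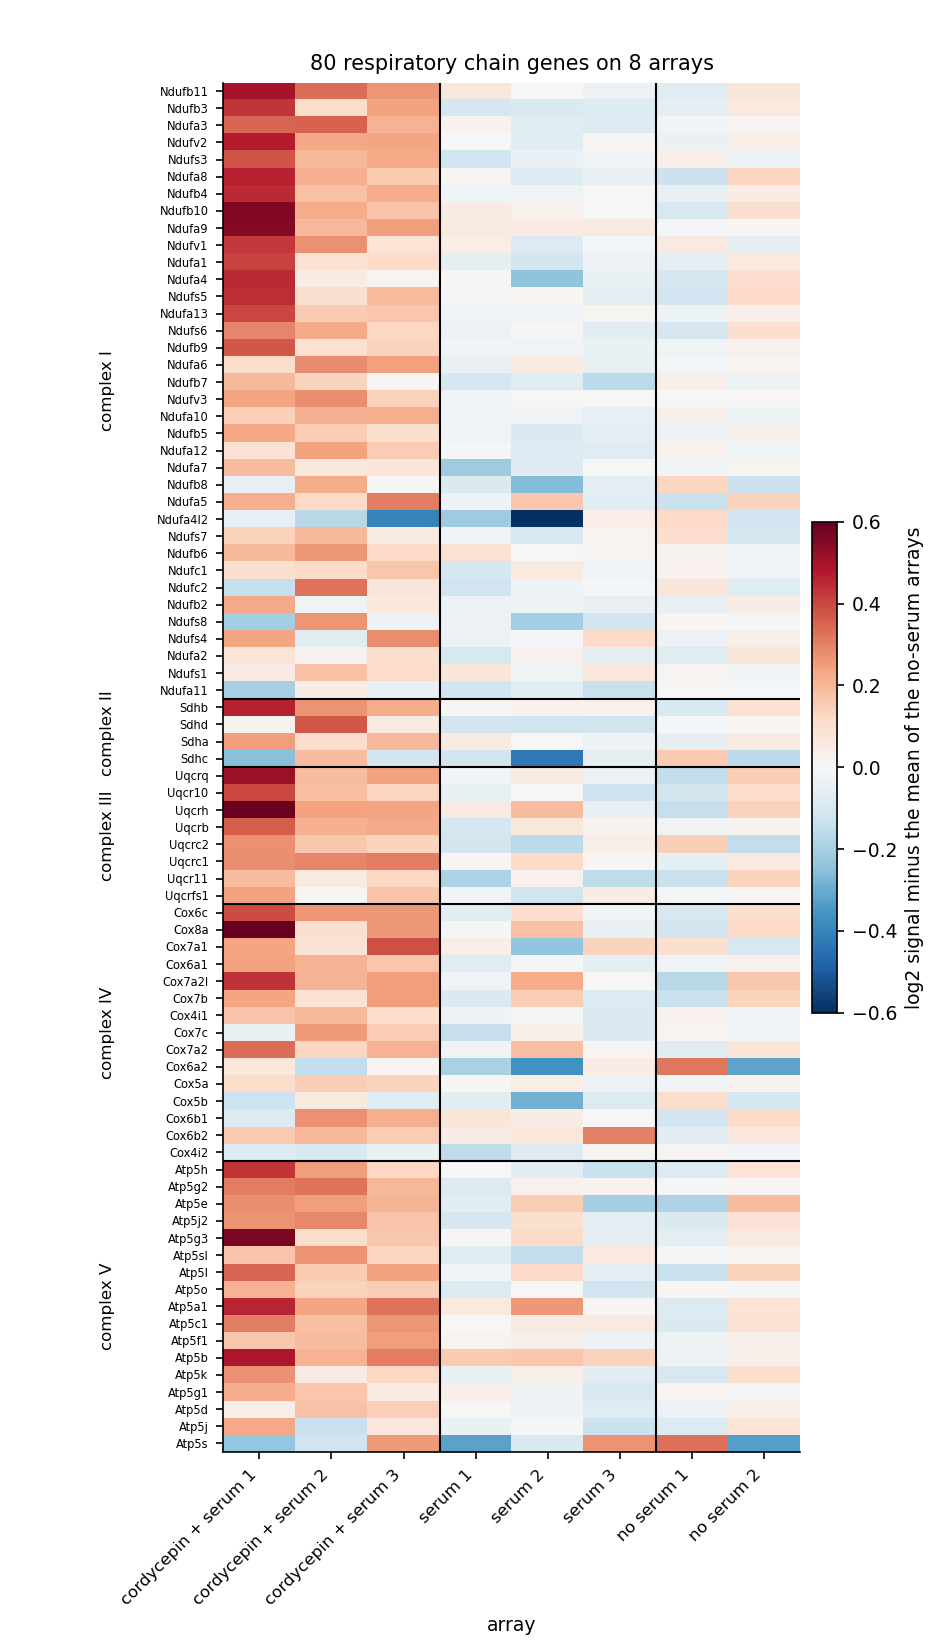
Heat map of 80 of the 81 tested genes (rows, grouped by complex and ordered by the cordycepin difference) on the 8 arrays (columns). Colour gives the log2 signal, relative to the 75th percentile of the array, minus the mean of the no-serum arrays, and colours end at 0.6 in either direction. The 3 cordycepin columns are mostly red, whereas the serum and no-serum columns are close to white; with spike-in controls set to 0 in place of the 75th percentile, all 81 genes would lie below the no-serum mean.

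Ndufa3 encodes an accessory subunit in the membrane arm of complex I, and its probe lies at chr7:3571695-3571754 of build mm9. Its level was 6.37, 6.38 and 6.23 on the cordycepin arrays, 6.04, 5.96 and 5.95 on the serum arrays, and 6.01 and 6.04 without serum. All 3 cordycepin arrays were above the other 5. The log2 difference between cordycepin plus serum and serum was 0.35 ± 0.10 (standard error, SE), with an adjusted p of 0.0442 by limma. This call was lost under 18 of 22 other settings, including each of the 8 that left out an array, where the adjusted p ran from 0.0575 to 0.138.

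The members next to Ndufa3 did not pass. Ndufb11, an accessory subunit of the membrane arm, measured 6.83, 6.67 and 6.60 with cordycepin and 6.40, 6.34 and 6.30 with serum alone (difference 0.35 ± 0.11, adjusted p = 0.0567). Ndufb3, another accessory subunit, differed by 0.35 ± 0.11 (adjusted p = 0.0707). Ndufv2, an iron-sulphur subunit of the NADH-oxidising module, differed by 0.33 ± 0.11 (adjusted p = 0.0696). Atp5h, subunit d of the ATP synthase stalk, differed by 0.33 ± 0.12 (adjusted p = 0.0894). In each of these 4 genes the cordycepin and serum arrays did not overlap. At the other end, Cox4i2, Atp5s, Cox6b2, Ndufa11 and Ndufs1 had differences of 0.00 to 0.08, and their arrays overlapped.

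**Figure D2:**
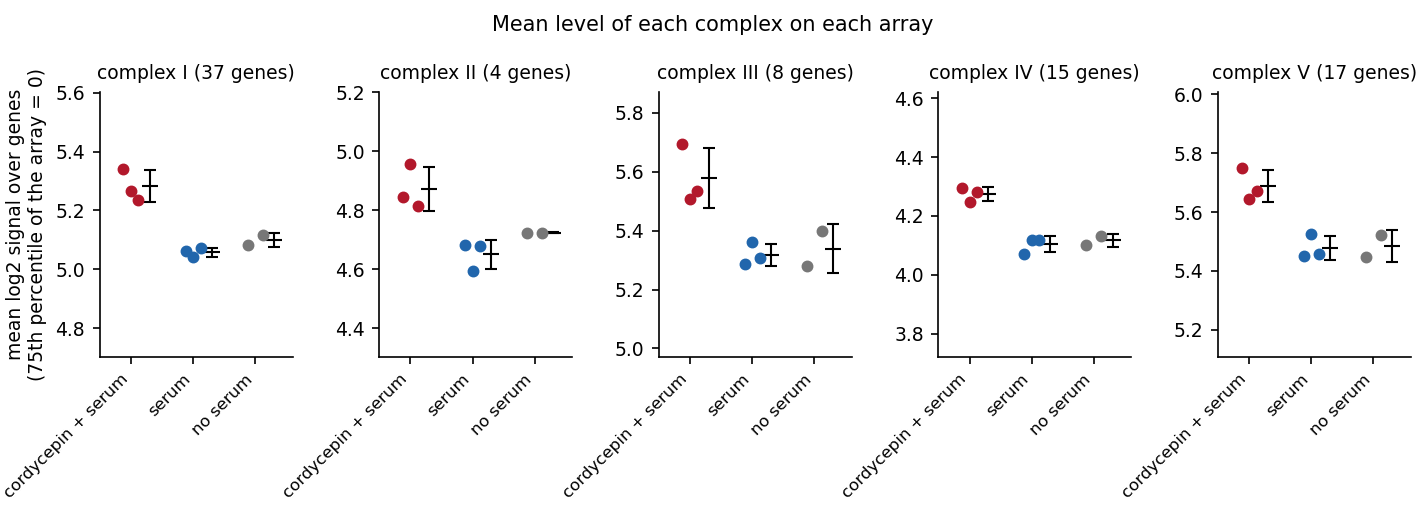
Mean log2 signal over the tested genes of each complex (y axis, 75th percentile of the array at 0, a different level but the same span in each panel) on each array, with 3 cordycepin plus serum, 3 serum and 2 no-serum arrays as points and the group mean ± SD beside them. The cordycepin points lie above the others in all 5 complexes; with spike-in controls set to 0, the median over all members with cordycepin plus serum falls below that without serum.

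The 5 complexes shifted by similar amounts. For complex I, the mean over its 37 tested genes was 5.34, 5.27 and 5.24 on the cordycepin arrays, against 5.06, 5.04 and 5.07 with serum and 5.08 and 5.12 without. The median difference between cordycepin plus serum and serum was 0.23 for complex I, 0.22 for complex II, 0.27 for complex III, 0.19 for complex IV and 0.23 for complex V. The spread between arrays was of a similar size in places: complex III measured 5.70 on cordycepin array 1 but 5.51 and 5.54 on the others. Genes whose cordycepin arrays all lay above the serum arrays numbered 28 of 37 in complex I and 3 of 4 in complex II. They numbered 7 of 8 in complex III, 4 of 15 in complex IV and 13 of 17 in complex V. Of the mRNA genes tested, 22% did so, and of the 3356 brightest of them 972, members included. With Ndufa4 counted in complex IV, and Atp5s and Atp5sl left out of complex V, the medians of complexes I, IV and V were 0.23 (36 genes), 0.19 (16 genes) and 0.23 (15 genes). Whether complexes differed from each other was not tested.

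Among the 7 core subunits of complex I, which carry its flavin and iron-sulphur clusters, the differences ran from 0.08 to 0.33 and 0 passed. Ndufs1, the largest of them, measured 5.06, 5.18 and 5.12 with cordycepin and 5.08, 4.98 and 5.07 with serum, and these arrays overlapped. The brightest probe of the complex belonged to Ndufa13, an accessory subunit also known as GRIM-19, which measured 7.72, 7.48 and 7.49 against 7.30, 7.30 and 7.34 (difference 0.25 ± 0.11, adjusted p = 0.152).

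In complex II, Sdha carries the flavin, Sdhb the iron-sulphur clusters, and Sdhc and Sdhd anchor them in the membrane. Sdhb measured 6.06, 5.87 and 5.82 with cordycepin, 5.61, 5.63 and 5.63 with serum, and 5.51 and 5.69 without serum (difference between the first groups 0.30 ± 0.11, adjusted p = 0.103). A second, dimmer probe of Sdhb, which was not the one chosen for the gene, differed by 0.37 ± 0.10 and passed (adjusted p = 0.0311). Sdha differed by 0.18 ± 0.10 and Sdhd by 0.26 ± 0.12, and neither passed. Sdhc measured 4.03, 4.46 and 4.17 with cordycepin against 4.16, 3.85 and 4.22 with serum, so that its arrays overlapped.

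In complex III, Uqcrh, the acidic hinge protein, had the brightest probe. It measured 8.12, 7.77 and 7.76 with cordycepin and 7.58, 7.71 and 7.48 with serum (difference 0.29 ± 0.14, adjusted p = 0.205). The 8 genes of this complex ranged from 0.17 for Uqcrfs1, the Rieske iron-sulphur protein, to 0.32 for Uqcrq. In complex V, the catalytic subunits Atp5a1 and Atp5b differed by 0.23 ± 0.12 and 0.18 ± 0.11. The genes Atp5g1, Atp5g2 and Atp5g3 encode the same mature subunit c of the rotor ring with different import sequences, and differed by 0.18 ± 0.10, 0.29 ± 0.10 and 0.26 ± 0.14. None of these 5 genes passed.

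Complex IV has subunits with isoforms for most tissues and for particular ones. The general forms Cox4i1, Cox6a1, Cox6b1, Cox7a2, Cox7b and Cox8a, with Ndufa4, which was first assigned to complex I and is now counted in complex IV, were well above background on all arrays. Cox6a1 had the brightest probe and measured 8.58, 8.55 and 8.51 with cordycepin, 8.27, 8.33 and 8.29 with serum, and 8.31 and 8.37 without serum (difference between the first groups 0.25 ± 0.09, adjusted p = 0.103). The cordycepin arrays of Cox6a1 all lay above the other 5. The median difference of these 7 genes was 0.20, and 0 passed.

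Of the 8 tissue isoforms, Cox7b2 and Cox8c, known from testis, and Cox8b, known from heart and muscle, were below the detection limit throughout. The other 5 were detected on all arrays, but their probes stood in the lower part of the signal range: from 10.8% of the tested mRNA genes below Ndufa4l2 to 31.9% below Cox6a2. The heart and muscle isoform Cox6a2 measured -0.53, -0.75 and -0.58 with cordycepin, -0.79, -0.96 and -0.55 with serum, and -0.28 and -0.91 without serum. Cox7a1, also of heart and muscle, differed by 0.26 ± 0.14 between cordycepin plus serum and serum, Cox4i2 by 0.00 ± 0.10 and Cox6b2 by 0.03 ± 0.11. Ndufa4l2, a paralogue of Ndufa4, ranged from -4.56 to -3.50 over the 8 arrays. Cordycepin and serum arrays overlapped in all 5, and 0 passed in any comparison.

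**Figure D3:**
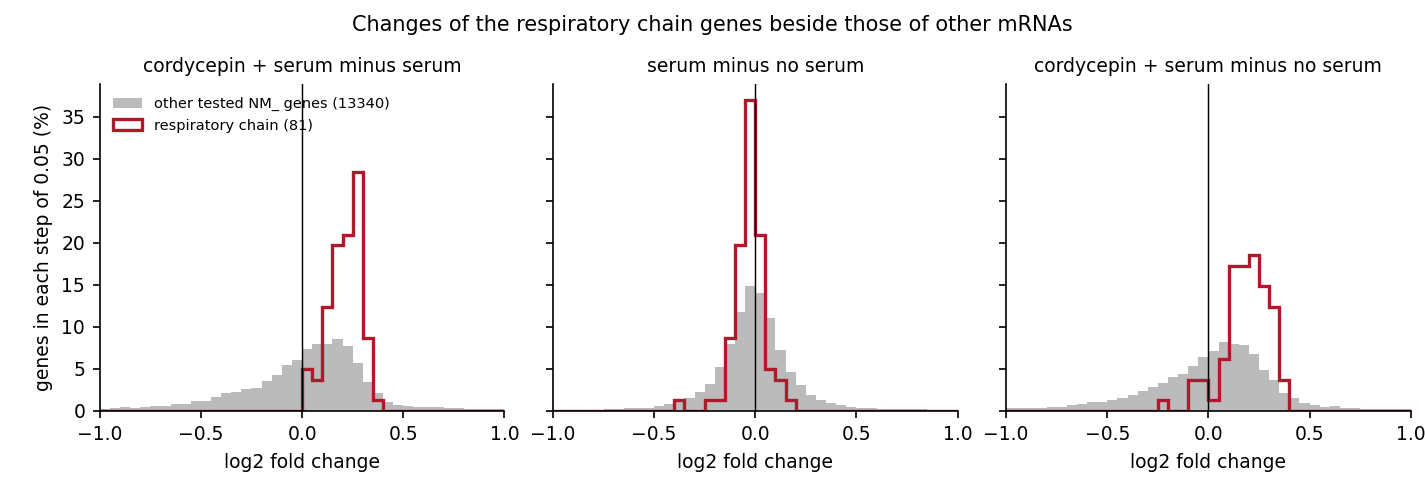
Histograms of the log2 fold change in steps of 0.05 (x axis) for the 81 respiratory chain genes (red outline) and 13340 other tested mRNA genes (grey), each as a percentage of its set, for the 3 comparisons. Changes beyond 1 in size are not drawn. The red outline is narrow in all panels, centred at 0.23, -0.03 and 0.20; the last of these is -0.19 with spike-in controls set to 0.

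**Figure D4:**
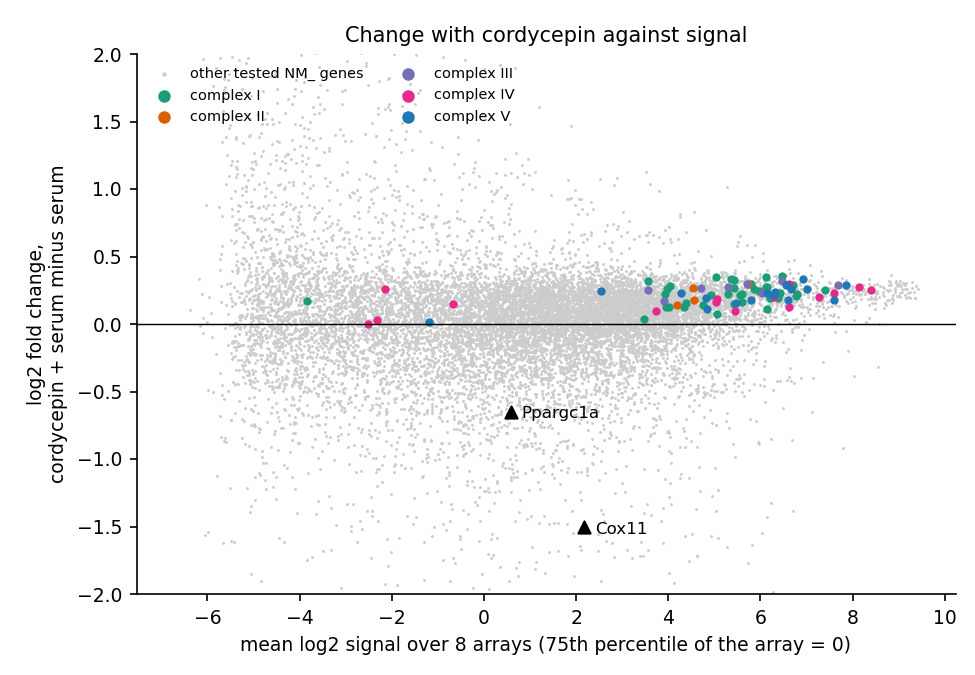
Log2 fold change between cordycepin plus serum and serum (y axis, drawn from -2 to 2) against the mean log2 signal over 8 arrays (x axis) for the tested mRNA genes in grey and the respiratory chain genes coloured by complex. Most bright genes lie in a band just above 0, and 81.4% of the other genes in the brightest of 10 bins are positive; the regulator Ppargc1a and the assembly factor Cox11 are marked by triangles.

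Most other bright mRNAs also had small positive differences in this comparison, with lower medians than the members. In the brightest of the 10 bins, the other genes had a median log2 difference of 0.17 with an interquartile range from 0.05 to 0.25, and 81.4% were positive. The 58 members there had a median of 0.23. In that bin, 4.91% of the other genes passed, against 26.1% in the dimmest bin, where there was no member. In the bin after the brightest, the other genes had a median of 0.09 and the 15 members 0.18. Members with an NRF1, ETS or YY1 core in their promoter had a median difference of 0.25 (27 genes), and those without one 0.21 (40 genes); both sets spanned nearly the same range, from 0.04 to 0.34 and from 0.01 to 0.35.

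The response to serum alone was examined by comparing serum with no serum. No change of the respiratory chain genes was detected. Of the 81 genes, 0 passed the test by limma and 0 had an unadjusted p under 0.05. Of the 13421 mRNA genes, 845 had an unadjusted p under 0.05. By the adjusted p, 2.27% of all probes passed, 1.73% with a log2 change of 1 or more in either direction, and 1.36% of the mRNA genes. The median difference was -0.03, with 25 positive and 56 negative values and an interquartile range of 0.07. With spike-in controls set to 0, all 81 values were negative and their median was -0.36, as the median over all probes moved to -0.35. Every serum array was higher than both no-serum arrays for 2 genes and lower for 5 of the 81, against 10.4% and 9.91% of the mRNA genes.

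Ndufa4l2 was lowest, at -0.38 ± 0.27, with serum arrays at -3.83, -4.56 and -3.57 and no-serum arrays at -3.50 and -3.73, and it was the only member whose 95% interval reached beyond 1 in size, to -1.01. Sdhc followed at -0.20 ± 0.18, Cox6a2 at -0.17 ± 0.21, Cox5b at -0.14 ± 0.13 and Ndufb8 at -0.14 ± 0.14. Among the highest were Atp5b at 0.15 ± 0.12, Cox6b2 at 0.14 ± 0.12, Atp5a1 at 0.11 ± 0.13 and Cox7a2l, a factor of supercomplex assembly, at 0.07 ± 0.15. The serum and no-serum arrays of Atp5b were 7.58, 7.59 and 7.56 against 7.39 and 7.46 and did not overlap.

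Cordycepin plus serum was also compared with no serum. This comparison shares its cordycepin arrays with the first one and its no-serum arrays with the second. The median difference of the 81 genes was 0.20, with 74 positive and 7 negative values. By limma 0 passed. At an unadjusted p under 0.05, 14 members were higher and 0 lower, beside 1569 higher and 1382 lower of the 13421 mRNA genes. Of all probes, 15.1% passed and 9.47% passed with a log2 change of 1 or more in either direction, and of the mRNA genes 11% passed. All cordycepin arrays lay above both no-serum arrays for 53 members and below them for 1, Cox4i2, against 25.4% and 16.1% of the mRNA genes. With spike-in controls set to 0, all 81 differences were negative, with a median of -0.19.

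Among the highest differences of this comparison were those of Ndufb11 (0.36), Uqcrh (0.36), Atp5a1 (0.34) and Atp5b (0.33), and the smallest adjusted p among these 4 was 0.0900, for Ndufb11. The 5 lowest were Ndufa4l2 (-0.21), Cox4i2 (-0.07), Ndufa11 (-0.07), Sdhc (-0.06) and Cox5b (-0.05). Ndufa11, an accessory subunit of complex I, measured 3.33, 3.58 and 3.49 with cordycepin and 3.53 and 3.53 without serum.

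Several probes measured the same gene in 22 members. Their differences between cordycepin plus serum and serum had the same sign in all 22 genes, with a median span of 0.06 and a widest span of 0.25. The widest span was that of Atp5c1, the gamma subunit of the ATP synthase, where the chosen probe differed by 0.21 ± 0.10 and a dimmer probe by 0.46 ± 0.13 (adjusted p = 0.0434). The chosen probes of Atp5h and Uqcrq differed by 0.33 and 0.32, and their other probes by only 0.13 and 0.15. Probes of a gene differed in sign in 12 of the 22 genes between serum and no serum. Between cordycepin plus serum and no serum they did so in 2. The chosen probe of Sdhc differed by -0.20 and -0.06 in these comparisons, and a second probe of similar signal by 0.01 and 0.07. For 9 of the tested members, the position that the array design gives for the chosen probe was on another chromosome than the gene itself: Ndufb11, Ndufs5, Cox7c, Atp5c1, Atp5g2, Atp5j2, Atp5k, Atp5l and Atp5o. On these probes, transcripts of the gene and of a copy elsewhere cannot be told apart. The median difference of these 9 was 0.24, and that of the other 72 was 0.23. The second probe of Ndufb11, placed on chromosome X at the gene, was dimmer and differed by 0.28 ± 0.12.

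Genes that work with the respiratory chain were examined from lists chosen by function. Between cordycepin plus serum and serum, 14.4% of the mRNA genes tested passed in either direction, the share to set beside each list. The 6 subunits and partners outside the name rule, among them cytochrome c (Cycs) and cytochrome c1 (Cyc1), had a median difference of 0.16 between cordycepin plus serum and serum, and 0 passed. The 15 enzymes of the citrate cycle and pyruvate dehydrogenase all had positive differences, with a median of 0.17, and 0 passed. Of 76 mitochondrial ribosomal proteins tested, 65 were positive with a median of 0.17. Mrps23 (0.37 ± 0.11, adjusted p = 0.0442) and Mrps9 (0.31 ± 0.09, adjusted p = 0.0488) passed, beside 14.4% of the mRNA genes. These calls were lost under 15 and 18 of 22 other settings. Leaving out 1 array ended the call of Mrps23 for 7 of the 8 arrays, all but serum replicate 2, with adjusted p up to 0.151, and that of Mrps9 for each of the 8, with adjusted p from 0.0736 to 0.136. The 77 cytosolic ribosomal proteins tested, whose mRNAs are also abundant, were all positive with a median of 0.25, and 0 passed. No gene on this array had a mitochondrial symbol starting with mt-Nd, mt-Co, mt-Cytb or mt-Atp. Other names of mitochondrially encoded mRNAs were not searched.

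**Figure D5:**
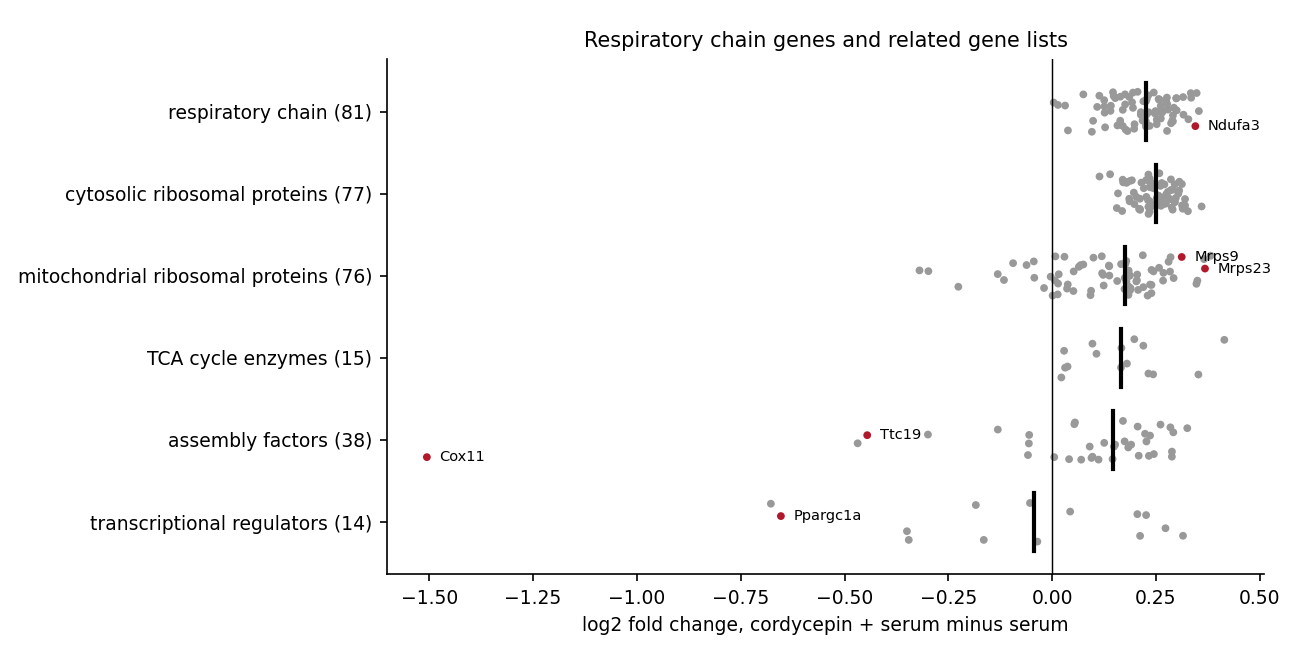
Log2 fold change between cordycepin plus serum and serum (x axis) for each tested gene of the respiratory chain and of 5 related lists, with the number of genes in brackets. Black bars are medians, and red points with names passed the test at an adjusted p under 0.05; heights within a row carry no meaning. The respiratory chain and the ribosomal protein genes form narrow groups at medians of 0.23 and 0.25, whereas Cox11, Ppargc1a and Ttc19 lie well below 0.

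The interquartile range of the differences was 0.18 over the assembly factors and 0.52 over the regulators, against 0.36 over the mRNA genes. Of 38 assembly factors tested, 30 had positive differences, the median was 0.15, and 2 passed, both lower, where 14.4% of the mRNA genes passed in either direction. Cox11, a copper chaperone for complex IV (probe at chr11:90506186-90506245 of mm9), measured 1.43, 1.21 and 1.40 with cordycepin, 2.90, 2.82 and 2.85 with serum, and 2.27 and 2.57 without serum. It fell to 0.352 of the level with serum alone (log2 difference -1.51 ± 0.12, adjusted p = 8.48e-05) and was also lower than without serum (-1.07 ± 0.13, adjusted p = 0.00118). The first of these calls stood under all 22 other settings, and the second was lost only with spike-in controls set to 0 (-1.46, adjusted p = 0.16). Ttc19, an assembly factor of complex III, fell by 0.45 ± 0.12 on the log2 scale (adjusted p = 0.0323), a call lost under 10 of 22 other settings. Among these were leaving out any 1 cordycepin array, serum replicate 1 or serum replicate 2, where the adjusted p ran from 0.0561 to 0.0987.

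Of the 14 transcriptional regulators tested, 8 had negative differences, the median was -0.04, and 1 passed, again beside 14.4% of the mRNA genes. Ppargc1a (probe at chr5:51848928-51848987 of mm9) measured 0.35, 0.18 and -0.04 with cordycepin, 0.83, 0.85 and 0.77 with serum, and 0.75 and 0.94 without serum, so that all cordycepin arrays lay below the other 5. It fell to 0.636 of the level with serum alone (log2 difference -0.65 ± 0.13, adjusted p = 0.00786) and differed from no serum by -0.68 ± 0.14 (adjusted p = 0.0139). With spike-in controls set to 0, the difference from serum alone was -0.71 with an adjusted p of 0.977, and over all 22 other settings it ran from -0.74 to -0.55. Its call against no serum was lost under 5 of 22 other settings. Among these were spike-in controls set to 0 (-1.07, adjusted p = 0.516 by limma) and no filter on dim probes (-0.68, adjusted p = 0.0604 by limma). Without no-serum replicate 2, where this call was also lost, the difference from no serum was -0.58. Nrf1 and Yy1, whose motifs were counted in the promoters, were looked at after their values were seen and did not pass (-0.35 ± 0.11, adjusted p = 0.063, and -0.35 ± 0.11, adjusted p = 0.0543). Gabpa, a GABP subunit, differed by 0.23 ± 0.13, and Tfam, which maintains mitochondrial DNA, by 0.04 ± 0.16. In the comparison of serum with no serum, 0 genes of any of these lists passed.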

How the data were processed

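Each deposited file gives the intensity of every spot of 1 array, not logged and not scaled between arrays. The authors read the arrays with Agilent Feature Extraction 10.7.3.1 per the file headers, and probe positions refer to build mm9. In these files the processed signal of 100% of spots equalled the signal after subtraction of a fitted spatial background and a trend correction, within 1%. The study's methods name limma and give no normalisation. There was a single slide and a single scan, hence no batch of either kind to test.

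The log2 of the processed intensity was taken and the 75th percentile over the non-control spots subtracted, so a change shared by most transcripts cannot be seen. Of 62976 spots, 3671 control spots and those marked as outliers were left out, and spots of a probe were averaged. Testing was limited to the 30859 of 55681 probes that reached well above background throughout 1 or more groups. Groups were compared with limma 3.58.1 in R 4.3.3 (1 mean per group, all 8 arrays, no covariate, two-sided), with Benjamini-Hochberg adjustment over all tested probes. SE is that of the fit, and SD that between arrays. A gene is given by its tested probe with the highest mean. The fit was tested on simulated data. The number of arrays limits the precision.

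The members, gene lists and alternatives were chosen with earlier results of these data known, and no set test was run. Named genes are the 5 highest and 5 lowest in each comparison, the brightest of each complex, complex II, the subunit c genes, the tissue isoforms with their partners, the name matches that are no subunit, and up to 3 passed genes per list; other members are named as examples, and 1 gene that the rule names is not reported here. RefSeq symbols matched all 84 genes, of which 3 had been renamed. Protein sequences were not analysed here.

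No pairing of arrays by replicate number was seen: same-numbered cordycepin and serum arrays deviated from their group means with correlations of -0.0006, -0.17 and 0.14. Those with different numbers ran from -0.32 to 0.32. With 3 arrays a group, such values cannot decide whether arrays were paired, and the fit treated them as unpaired. The series' text describes the triplicates as independent, without saying whether this means cultures, so p-values measure the spread between these samples. Alternatives covered background correction, scaling, filters, outlier spots, slide row, replicate number, arrays in the fit, probe choice, the rule for a call and each array left out.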

Additional observations from a re-analysis of the deposited data

How the results depend on the processing

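The number of members that passed in the comparison of cordycepin plus serum with serum, 1 as reported, was 0 with normexp background correction, quantile normalisation, spike-in centring, no filter on dim probes, the slide row as a block, only the arrays of the groups compared, centring on the brightest mRNA genes without the members (added after seeing the data), and with the call rules that ask for a log2 fold change of 1, on the adjusted p or at the study's cut-offs. With the replicate number as a block it was also 0, and the median member change was 0.23 in this comparison, -0.01 for serum against no serum and 0.20 for the comparison of cordycepin plus serum with no serum. It was 2 with centring on the median of mRNA probes (Ndufa3 and Ndufb11) and with the mean over all probes of a gene (Ndufa3 and Sdhb). Leaving out any array gave 0 to 0 in all 3 comparisons. The cause was not tested. The other 2 comparisons gave 0 members under every alternative.

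The grouping with Ndufa4 in complex IV and without Atp5s and Atp5sl in complex V was added after seeing the data. All other genes, Ndufa4l2 and Cox7a2l among them, stayed where their symbol had placed them. The median member change between cordycepin plus serum and serum, 0.23, was 0.11 after quantile normalisation and 0.17 with spike-in centring, and ran from 0.19 to 0.24 with an array left out. That between serum and no serum, -0.03, was -0.36 with spike-in centring, which moved the median of all probes from -0.02 to -0.35, and ran from -0.06 to 0.01 with an array left out, the positive value being that without no-serum replicate 2. That between cordycepin plus serum and no serum, 0.20, was 0.15 with normexp, 0.0669 after quantile normalisation, 0.123 with centring on the brightest mRNA genes and -0.19 with spike-in centring, where the sign turned as the median of all probes moved to -0.31; it ran from 0.16 to 0.23 with an array left out. The probes that passed between cordycepin plus serum and serum, 19.4%, numbered 8.22% with no filter and 6.5% with spike-in centring. Those between serum and no serum, 2.27%, numbered 0.4% and 0.677% under these, 1.45% with normexp, 1.27% with only the 2 groups in the fit, 1.38% without serum replicate 1, and 0.962% and 0.862% without no-serum replicates 1 and 2. Those between cordycepin plus serum and no serum, 15.1%, numbered 5.89%, 4.67%, and 9.88% and 9.65% without no-serum replicates 1 and 2. Of 2706 values of 41 named genes over 22 alternatives, 0 called values reversed, 70 calls were lost, 2 were gained, and 157 values that had not passed changed sign, most often with spike-in centring. Signal over background limits the tissue isoforms: 3 had only values that were not well above background.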
